A study of Mus musculus with 16 samples.

Results

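The 8 genes described here were measured in the hippocampus of hTau.P301S and WT mice. They are Gm13394, Gm10020, Gm6969, Gm9855, Gm5436, Baiap2l1, AC160336.1 and Tmem181b-ps, and they were chosen by their measured counts in the same mice, as genes in which all 8 hTau.P301S mice lay on one side of all 8 WT mice, leaving aside genes taken for ribosomal pseudogenes and MHC genes. The table of counts lists 54532 genes, of which 17555 had enough counts to be tested over the 16 mice, and 34 of the 17555 separated the genotypes in this way (0.194%). All 8 genes named above were among those 34, which their choice required. The genotype difference of these 8 genes is therefore given below as a description without a test, and only the response to NR and genes that were not chosen were tested.

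Hippocampal RNA was sequenced from 16 mice, 4 per group. Transgenic mice (hTau.P301S) express human Tau bearing the P301S substitution from the Thy1 promoter, and WT mice lack the transgene. Within each genotype, 1 group received NR and 1 did not. NR (nicotinamide riboside, a precursor of NAD+) was given at 6 mM in drinking water for 3 months, from 12 to 15 months of age according to the sample labels, and the other mice drank vehicle water. The study's text gives other ages and durations, and no test used either. The strain background of the 2 genotypes, the breeding scheme and whether WT mice were littermates are not given in the sources used here, so a difference that came with the transgene and one that came with the background of the line cannot be told apart.

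Of the 8 genes, 6 are pseudogenes. A processed pseudogene is a copy of a spliced messenger RNA that was written back into the genome, so it lacks introns and usually a promoter of its own. An unprocessed pseudogene comes from duplication of a stretch of genome and keeps the exon structure of its source. A short read can match both a copy and its source, so counts of such genes depend on how reads with several matches were assigned, and the counts of the 6 pseudogenes are uncertain to that extent.

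By position in GRCm38 (GENCODE M21 annotation), all 8 genes lie on the minus strand of 7 chromosomes. Gm13394 (ENSMUSG00000083773) is a processed pseudogene on chromosome 2 from 28933610 to 28934609. Gm10020 (ENSMUSG00000057262) is a processed pseudogene on chromosome 15 from 52477617 to 52478228. Its closest coding gene is Rpl15, so it is a ribosomal pseudogene by sequence although its symbol does not show it. Gm6969 (ENSMUSG00000066553) and Gm5436 (ENSMUSG00000042962) are processed pseudogenes on chromosome 12, from 24638669 to 24639010 and from 84258331 to 84258973. Gm9855 (ENSMUSG00000085666) is a processed pseudogene on chromosome 10 from 42054113 to 42055306. Tmem181b-ps (ENSMUSG00000096780) is a transcribed unprocessed pseudogene on chromosome 17 from 6438524 to 6467022. The remaining genes are not pseudogenes. Baiap2l1 (ENSMUSG00000038859), on chromosome 5 from 144264526 to 144358112, encodes a protein of the I-BAR family, which binds membranes and actin. AC160336.1 (ENSMUSG00000115801), on chromosome 14 from 44544055 to 44637201, is a long intergenic non-coding RNA annotated as a single transcript of 93147 bases.

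The annotated transcript of each pseudogene was aligned, over its whole length, with the coding transcript closest to it, its source gene. For Tmem181b-ps this transcript has 1413 bases against a gene length of 4187 bases in the counts, and the rest was not aligned. Gm13394 matched Gapdh, the glycolytic enzyme, at 99.9% identity over 1000 bases with 1 mismatch, A346C. In this notation the source base comes first, then the position in the pseudogene transcript counted from 1 at its 5′ end, then the pseudogene's base. Gm10020 matched Rpl15, a protein of the large ribosomal subunit, at 99.7% over 612 bases with the 2 mismatches A156G and C202A. Gm6969 matched Cox7a2l, a factor in the assembly of respiratory supercomplexes, at 97.7% over 342 bases with 2 mismatches and 6 gap bases. Gm9855 matched Tdg, a DNA glycosylase of base excision repair, at 99.2% over 1194 bases with 9 mismatches, Gm5436 matched Atp5o, a subunit of the mitochondrial ATP synthase, at 97.0% over 643 bases with 19 mismatches, and Tmem181b-ps matched Tmem181a at 99.4% over 1415 aligned bases with 7 mismatches and 2 gap bases. By such differences a read could tell pseudogene from source. For each pair 1 stretch is shown here, from GENCODE M21 transcripts, chosen within the coding part of the source for the most differences. Differences outside these stretches are not shown. The differing bases are in capitals, with the pseudogene above its source.
Gm13394: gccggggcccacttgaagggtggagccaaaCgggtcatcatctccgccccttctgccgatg
Gapdh: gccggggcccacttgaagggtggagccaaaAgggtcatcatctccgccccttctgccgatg
Gm10020: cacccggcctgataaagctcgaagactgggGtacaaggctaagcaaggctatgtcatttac
Rpl15: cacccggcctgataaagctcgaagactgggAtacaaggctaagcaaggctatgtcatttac
Gm6969: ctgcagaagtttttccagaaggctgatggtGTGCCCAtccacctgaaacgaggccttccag
Cox7a2l: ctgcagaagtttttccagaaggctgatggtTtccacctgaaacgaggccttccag
Gm9855: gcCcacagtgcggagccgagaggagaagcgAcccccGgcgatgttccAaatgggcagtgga
Tdg: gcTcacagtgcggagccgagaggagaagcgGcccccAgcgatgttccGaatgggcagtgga
Gm5436: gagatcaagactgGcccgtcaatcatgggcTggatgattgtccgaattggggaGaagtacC
Atp5o: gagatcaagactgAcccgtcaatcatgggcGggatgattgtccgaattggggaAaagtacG
Tmem181b-ps: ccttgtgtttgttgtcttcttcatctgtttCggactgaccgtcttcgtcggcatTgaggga
Tmem181a: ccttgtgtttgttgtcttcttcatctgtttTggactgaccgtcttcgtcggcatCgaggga

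How much of each pseudogene a short read could identify was counted in windows of 50 bases that occur in the transcripts of no other gene. Gm13394 had 50 such windows of 951 (5.26%), all of which span the base at position 346. Among 148 other genes with a matching copy over this position, Gapdh itself included, 144 carry the Gapdh base, 1 carries the base of Gm13394 and 3 carry another. Gm10020 had 50 of 563 windows in no other gene (8.88%), Gm9855 168 of 1145 (14.7%), Tmem181b-ps 201 of 1364 (14.7%), Gm6969 90 of 293 (30.7%) and Gm5436 443 of 594 (74.6%). The windows of Tmem181b-ps cover its aligned transcript of 1413 bases only. The counts of Gm13394 and Gm10020 thus rested on the fewest identifying windows and those of Gm5436 on the most. Among the source transcripts the share was 80.2% for Cox7a2l, 53.7% for Tmem181a, 49.7% for Atp5o, 34.1% for Tdg, 32.1% for Rpl15 and 9.57% for Gapdh. Beyond the source gene and the other annotated copies at 90% identity or more over at least 50% of the length, sequence that GRCm38 does not hold was not analysed here.

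Total counts per mouse ranged from 16490261 to 21915362, and levels are given as CPM, counts scaled to each library's size after TMM normalization. In hTau.P301S replicate 1, 14.4% of counts were mitochondrial against 4.48% to 7.07% in the other mice, and 19467 genes were detected against 22199 to 24918. That mouse stood apart in several of the 8 genes, so the NR comparisons are also given without it. Thy1, whose promoter drives the transgene, was 1135 ± 359 CPM (SD, n = 4) in hTau.P301S, 733 ± 77.2 in hTau.P301S + NR, 528 ± 78.3 in WT and 525 ± 71.6 in WT + NR mice. It was higher in hTau.P301S mice by 0.79 on the log2 scale (edgeR adjusted p = 0.0435), a call lost in 17 of 22 alternative fits, and by 0.67 (adjusted p = 0.00891) without hTau.P301S replicate 1. The mouse gene Mapt, which encodes tau, differed by -0.09 (adjusted p = 0.898), and the human transgene was not analysed here. The 5 hippocampal neuron markers Prox1, Neurod6, Hpca, C1ql2 and Spink8 were detected in every mouse, with summed levels from 336 to 4582 CPM, and 4 markers of striatal neurons summed to between 13.3 and 714 CPM.

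Gm13394 had the widest gap between the genotypes. Its level was 1.42, 1.91, 2.06 and 1.68 CPM in WT replicates 1 to 4, 2.31, 2.29, 2.07 and 1.58 CPM in WT + NR, 569, 234, 297 and 282 CPM in hTau.P301S, and 180, 247, 171 and 226 CPM in hTau.P301S + NR mice. The lowest hTau.P301S mouse was 73.8 times the highest WT mouse, from raw counts of 3045 to 6652 against 26 to 45. Replicate 1 of hTau.P301S was the highest of all. Per kilobase of gene length the medians were 241 CPM in the 8 hTau.P301S and 1.98 CPM in the 8 WT mice.

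Gm10020 and Gm6969 followed with hardly any counts in WT mice. Gm10020 was 0.438, 0.112, 0.211 and 0.108 CPM in WT, 0.0514, 0.109, 0.197 and 0.339 CPM in WT + NR, 91.5, 9.9, 12.2 and 11.1 CPM in hTau.P301S, and 7.35, 8.09, 7.79 and 9.28 CPM in hTau.P301S + NR mice. Its raw counts were 1 to 8 in WT and 139 to 1071 in hTau.P301S mice, so the WT levels carry a large counting error. Gm6969 was 1.64, 0.616, 0.58 and 0.162 CPM in WT, 0.154, 0.601, 0.494 and 1.58 CPM in WT + NR, 128, 21, 27.1 and 15.5 CPM in hTau.P301S, and 16.4, 25.4, 23.4 and 20.4 CPM in hTau.P301S + NR mice. In both genes hTau.P301S replicate 1 was far above every other mouse. The lowest hTau.P301S mouse exceeded the highest WT mouse by a factor of 16.8 for Gm10020 and 9.44 for Gm6969.

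Gm9855 and Gm5436 differed less. Gm9855 was 0.384, 0.504, 0.422 and 0.866 CPM in WT, 0.976, 1.09, 0.79 and 0.621 CPM in WT + NR, 2.14, 5.35, 7.19 and 5.87 CPM in hTau.P301S, and 5.15, 5.63, 5.88 and 4.86 CPM in hTau.P301S + NR mice. Here hTau.P301S replicate 1 was the lowest of the 8 transgenic mice, the reverse of its place in Gm13394, Gm10020 and Gm6969. Gm5436 was 1.59, 2.13, 1.37 and 1.57 CPM in WT, 1.59, 1.48, 1.48 and 1.13 CPM in WT + NR, 38.1, 4.56, 6.59 and 8.75 CPM in hTau.P301S, and 5.92, 6.26, 5.71 and 5.39 CPM in hTau.P301S + NR mice. WT mice retained 20 to 38 raw counts of Gm5436, and the genotypes stood 2.14-fold apart at their nearest mice, close to the 1.96-fold of Gm9855.

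Tmem181b-ps was the only one of the 8 genes that was lower in hTau.P301S mice. It was 40.6, 27.7, 137 and 44 CPM in WT, 98.9, 61.1, 25.1 and 63.1 CPM in WT + NR, 7.52, 8.05, 9.48 and 12.4 CPM in hTau.P301S, and 12.9, 10.1, 10.8 and 11.3 CPM in hTau.P301S + NR mice. The 8 WT mice spread over a factor of 5.45 and the 8 hTau.P301S mice over a factor of 1.72. The means differed 6.03-fold, and the lowest WT mouse was 1.94 times the highest hTau.P301S mouse.

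Baiap2l1, the protein-coding gene of the 8, had the narrowest margin. It was 8.17, 1.96, 0.791 and 1.51 CPM in WT, 0.719, 1.37, 4.84 and 10.7 CPM in WT + NR, 37.2, 24.3, 19.2 and 32 CPM in hTau.P301S, and 11.7, 24.6, 29 and 18.2 CPM in hTau.P301S + NR mice. The lowest hTau.P301S mouse was 1.1 times the highest WT mouse, although the means differed 6.53-fold, because WT mice spread over a factor of 14.8. AC160336.1 was 0.274, 0, 0.0527 and 0.379 CPM in WT, 0.257, 0.219, 0.148 and 0.113 CPM in WT + NR, 4.02, 1.22, 1.31 and 0.72 CPM in hTau.P301S, and 1.48, 1.15, 2.63 and 0.875 CPM in hTau.P301S + NR mice. Its raw counts were 0 to 7 against 13 to 47, and the count of 0 in WT replicate 2 allows a level of up to 0.168 CPM. Floors of this kind cover counting error only.

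**Figure D1:**
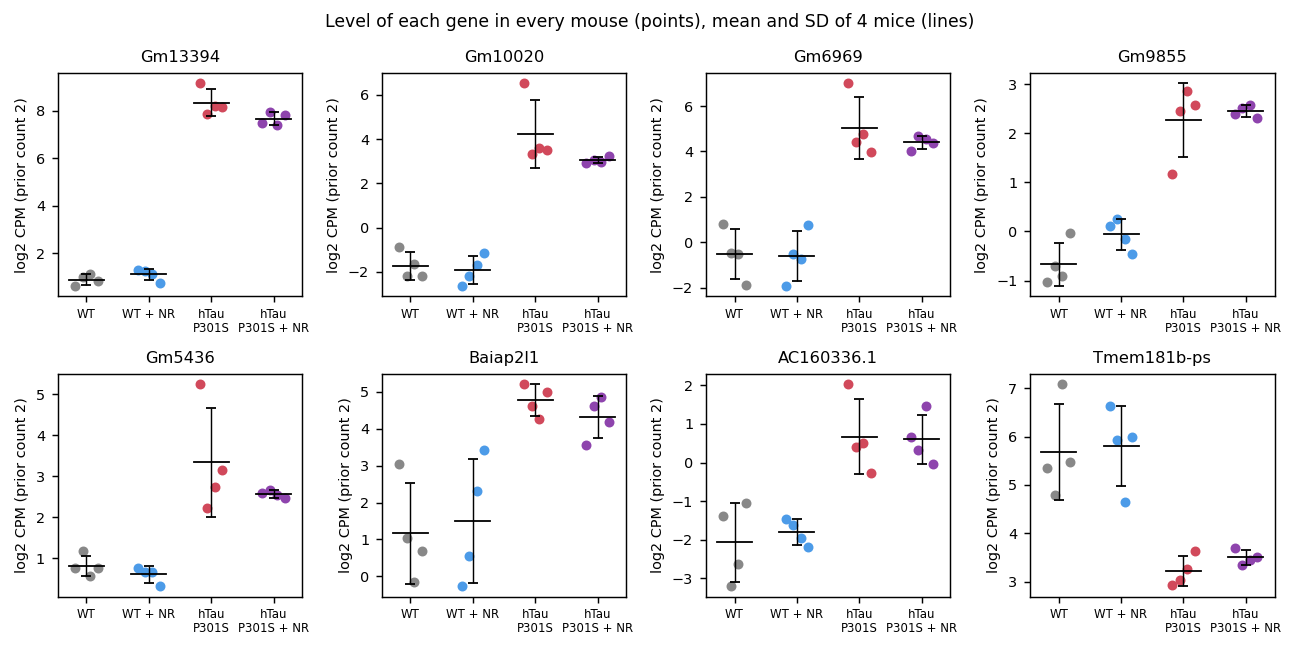
Each panel plots the log2 CPM (prior count 2, y axis) of 1 of the 8 genes in every mouse (points) of the 4 groups (x axis), with the mean and SD of 4 mice as lines. Only Tmem181b-ps lies lower in the hTau.P301S groups, and hTau.P301S replicate 1, the leftmost point of its group, is the highest of its group in Gm13394, Gm10020, Gm6969, Gm5436, Baiap2l1 and AC160336.1. For Baiap2l1 this place holds in CPM and not in raw counts.

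Of the 8 genes, 7 were higher in hTau.P301S mice on the log2 scale. Among the 34 separating genes of the whole table, 27 were higher and 7 lower in hTau.P301S mice, and a further 23 genes fell short by 1 of the 64 pairs of mice. By annotation, 13 of the 34 were processed pseudogenes, among 598 processed pseudogenes tested, and 14 were protein coding, among 14884 tested. The remaining 7 included 3 long intergenic non-coding RNAs, AC160336.1 among them.

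A chosen pseudogene shares almost all of its aligned sequence with its source gene, so the question arose whether the source genes differed as well. Of the 6 source genes, 1 was called (a log2 fold change beyond 0.5 in either direction with adjusted p below 0.05) in the fit of hTau.P301S against WT over all 16 mice, where 28 of 17555 genes passed (0.159%). This was Tdg, at 25.8, 27.3, 29.8 and 34.9 CPM in WT, 28.8, 38.5, 19.4 and 28.8 CPM in WT + NR, 11.1, 16.4, 20 and 18.8 CPM in hTau.P301S, and 14.8, 15.4, 15.6 and 15.5 CPM in hTau.P301S + NR mice. Tdg fell by 0.87 on the log2 scale (SE 0.15, edgeR adjusted p = 0.0205) while its pseudogene Gm9855 stood higher, and its groups overlapped, since WT + NR replicate 3 lay below hTau.P301S replicate 3. The call was lost in 9 of the 16 fits without 1 mouse, where the adjusted p ranged from 0.00728 to 0.0773. Summed over Gm9855 and Tdg, the median was 21.2 CPM in hTau.P301S and 29.6 CPM in WT mice. A read can match both a pseudogene and its source gene, so the tests of source genes are not independent of the choice. The p-value of Tdg is not read as support for the difference of Gm9855.

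The other 5 source genes did not pass in edgeR. Gapdh differed by -1.07 (SE 0.46, adjusted p = 0.514), Atp5o by 0.58 (SE 0.41, adjusted p = 0.681), Rpl15 by 0.37 (SE 0.35, adjusted p = 0.759), Cox7a2l by 0.18 (SE 0.33, adjusted p = 0.904) and Tmem181a by -0.10 (SE 0.17, adjusted p = 0.901). Without hTau.P301S replicate 1 the differences of Atp5o, Rpl15 and Cox7a2l became -0.18, -0.24 and -0.38, and none passed. The row of Gapdh itself held few counts, from 3.72 to 11.9 CPM in hTau.P301S mice and from 4.68 to 9.23 CPM in WT mice other than WT replicate 1, which had 78.6 CPM. Gm13394 therefore held more counts than Gapdh in every hTau.P301S mouse. Only 9.57% of the Gapdh windows occur in no other gene, so its row is not a measure of Gapdh expression. The comparison is of assigned counts.

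Expressed as a share of pseudogene and source counts together, Gm13394 took 96.9% to 98.5% in hTau.P301S and 1.78% to 30.2% in WT mice. Gm6969 took 13.1% to 18.6% against 0.109% to 1.3%. Gm10020 took 4.32% to 8.18% against 0.0296% to 0.251%. Gm9855 took 16.1% to 27.4% against 1.4% to 3.9%, Gm5436 5.57% to 11% against 1.31% to 2.24%, and Tmem181b-ps 12.5% to 26.3% against 37.4% to 68.7%. The shares separated the genotypes in all 6 pairs, as the levels of the pseudogenes did. Each share contains the pseudogene counts that were chosen for this separation, so it is a description and no further support. These are shares of assigned counts, not of expression. The shares varied less within the hTau.P301S mice than the levels did in the pairs where replicate 1 stood apart. In that mouse Gm6969 was 6.1 times and Cox7a2l 5.95 times the median of the other 7 hTau.P301S mice, Gm10020 9.86 and Rpl15 7.14 times, and Gm5436 6.44 and Atp5o 9.11 times. The share of Gm6969 in replicate 1 was 17.3%, within the 13.1% to 18.6% of the other hTau.P301S mice, whereas Gm9855 at 16.1%, Gm5436 at 5.57%, Gm10020 at 8.18% and Tmem181b-ps at 26.3% were outside the range of the others.

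**Figure D2:**
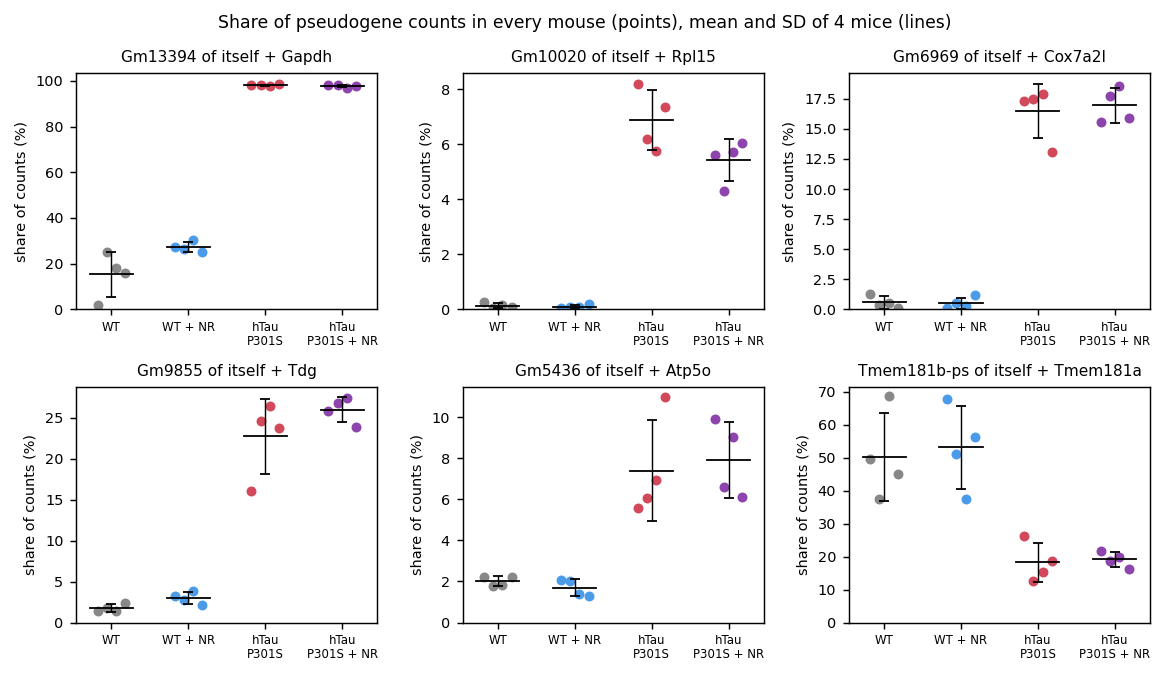
Each panel plots the share of counts (%, y axis) that a pseudogene took of itself and its source gene in every mouse (points) of the 4 groups (x axis), with the mean and SD of 4 mice as lines. The share of Gm13394 is 96.9% or more in every hTau.P301S mouse and at most 30.2% in every WT mouse, and that of Tmem181b-ps is lower in hTau.P301S mice.

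The other genes with a copy of each pseudogene, apart from its source gene, were examined next. Gm13394 has 148 of these, of which 113 had a count and 12 were tested. None of the 12 was called in edgeR and none separated the genotypes, and their median log2 difference was -0.02. Together the 148 summed to 61.9 to 117 CPM in hTau.P301S and 68.4 to 93.9 CPM in WT mice. A large part of this sum was Peli2, with a match of 92.3% identity and a median of 30.4 CPM in hTau.P301S and 31.2 CPM in WT mice. Among the 19 listed for Gm10020, 4 were tested and 2 of these separated the genotypes. Rpl15-ps2 was 0.896 to 17.6 CPM in hTau.P301S and 0.0987 to 0.257 CPM in WT mice. It was higher by 4.24 on the log2 scale (SE 0.59, edgeR adjusted p = 0.00367) and was called in all 21 alternative fits that held it. The filter of at least 10 counts in every mouse left it out. Rpl15-ps3 was 0.665 to 9.49 CPM against 0.108 to 0.494 CPM, a difference of 2.52 (SE 0.55, adjusted p = 0.107) that did not pass in edgeR and was called by DESeq2 (adjusted p = 0.00127). These pseudogenes are 98.7% and 99.7% identical to Gm10020, so a read can match more than one of them and their counts are not independent. Both entered the fit only through the hTau.P301S mice, where they are high. Their p-values are therefore not read as support for the difference of Gm10020. The third gene of the Tmem181 group, Tmem181c-ps, had at most 1.21 CPM in any mouse and was not tested.

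Genes near each of the 8 start sites were tested for the same genotype difference. Within 1 Mb, 169 genes were tested and none passed with edgeR. By unadjusted p under 0.05, 19 of them (11.2%) differed, against 9.06% of all tested genes, and none of the 169 separated the genotypes. DESeq2 called 2 of them, Dynlt1b and D130017N08Rik. By member, the genes at an unadjusted p under 0.05 were 6 of 28 for Gm13394, 0 of 6 for Gm10020, 2 of 11 for Gm6969, 4 of 20 for Gm9855, 1 of 42 for Gm5436, 4 of 35 for Baiap2l1, 1 of 10 for AC160336.1 and 1 of 17 for Tmem181b-ps. Where a member had 2 or more such genes, they were split evenly between higher and lower. Widening the range to 5 Mb took in 656 genes, of which 58 (8.84%) had an unadjusted p under 0.05 in edgeR and none was called, while DESeq2 called 5, namely Dynlt1b, D130017N08Rik, Col5a1, Rnaseh1 and Tmem260.

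The neighbour with the smallest p was Dynlt1b, a dynein light chain gene 36.9 kb from the start of Tmem181b-ps, singled out after its values were seen. It was 2.3, 2.02, 2.37 and 0.811 CPM in WT, 2.62, 2.35, 2.76 and 2.93 CPM in WT + NR, 1.28, 0.794, 0.436 and 0.499 CPM in hTau.P301S, and 0.672, 0.365, 0.28 and 1.17 CPM in hTau.P301S + NR mice. The groups overlapped only through WT replicate 4, and the log2 difference of -1.71 (SE 0.33) had an adjusted p of 0.0652 in edgeR. It was called in 4 of 21 alternative fits, and 1 of these was DESeq2. The others were without WT replicate 4 (adjusted p = 0.0332), without hTau.P301S + NR replicate 4 (0.0273) and without hTau.P301S replicate 1 (0.0171). It was not called in 17, among them 13 of the 16 fits without 1 mouse, where the adjusted p reached 0.16. Raw counts of Dynlt1b were 5 to 56. The nearby Dynlt1a, Dynlt1c and Dynlt1f differed by -0.12, 0.06 and 0.59, and none passed in edgeR. D130017N08Rik, 600 kb from the start of Baiap2l1, differed by -0.88 in all mice (edgeR adjusted p = 0.182). It was called without hTau.P301S replicate 1 (log2 difference -0.75, adjusted p = 0.0386).

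**Figure D3:**
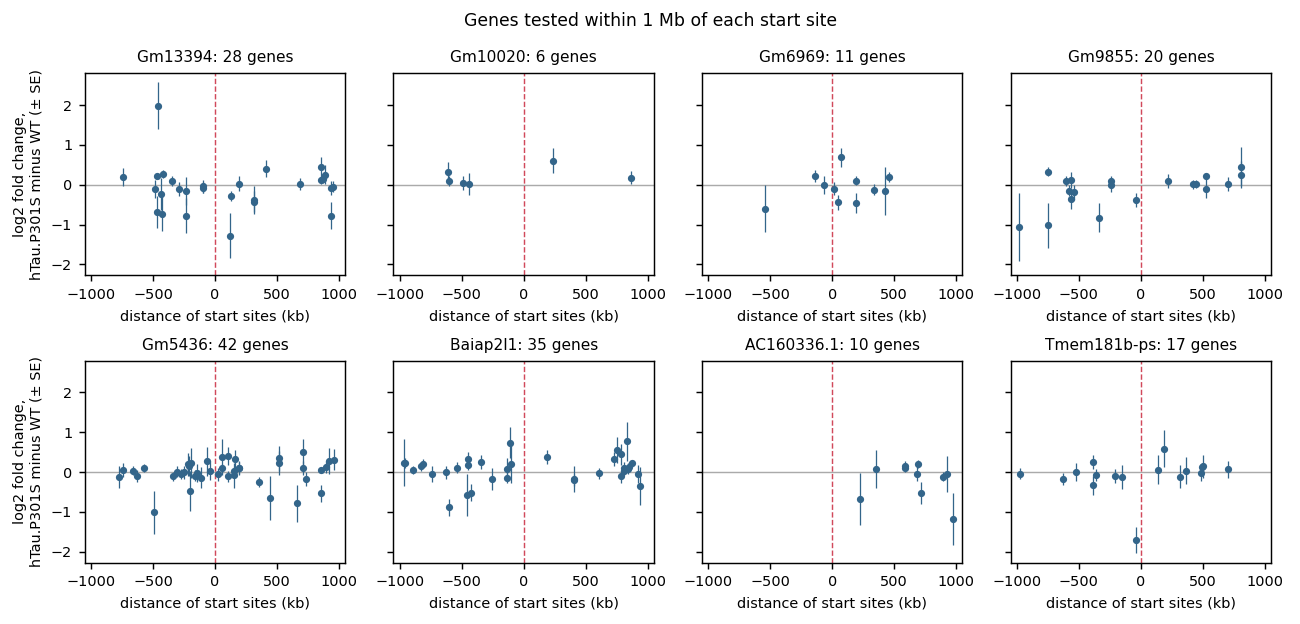
Each panel plots, for the genes tested within 1 Mb of 1 of the 8 start sites, the log2 fold change of hTau.P301S minus WT mice with its SE (y axis) against the distance between start sites in kb (x axis). The points scatter around 0 on both sides of the dashed line, and the lowest near Tmem181b-ps is Dynlt1b at -1.71.

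Baiap2l1 moved with markers of the choroid plexus in WT mice. The summed level of the 4 markers Ttr, Folr1, Kl and Kcnj13 was 7755, 2406, 19 and 138 CPM in WT and 61.4, 51.4, 5770 and 9572 CPM in WT + NR mice. The 4 WT mice highest in Baiap2l1, at 10.7, 8.17, 4.84 and 1.96 CPM, were the 4 highest in these markers, and in the same order. In hTau.P301S mice the sum was 17.7, 4634, 34.5 and 39.5 CPM, and in hTau.P301S + NR mice 69.4, 3508, 52.2 and 423 CPM, with Kcnj13 at 0 in at least 1 mouse of each group. The hTau.P301S mouse highest in Baiap2l1, replicate 1 at 37.2 CPM, had the lowest marker sum of all. Its raw count of Baiap2l1 was 435, below the 458 of replicate 2 and the 578 of replicate 4. Its first place thus holds in CPM and not in raw counts. The part of tissue composition in the level of Baiap2l1 was not tested, and fewer cells of a type and less RNA per cell cannot be told apart in bulk tissue. Other members of the I-BAR family were tested for the genotype difference. Baiap2 differed by 0.05 (adjusted p = 0.958), Baiap2l2 by -0.20 (0.771), Mtss1 by -0.11 (0.840) and Mtss1l by -0.26 (0.795), so that none of the 4 passed in edgeR.

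**Figure D4:**
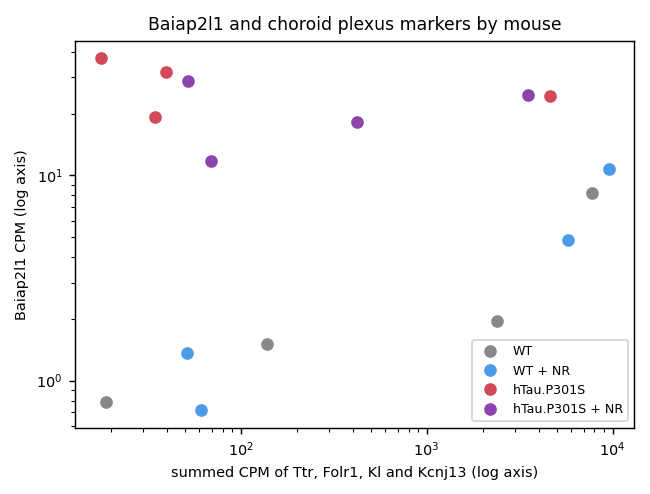
The level of Baiap2l1 (CPM, y axis) is plotted against the summed level of Ttr, Folr1, Kl and Kcnj13 (CPM, x axis) for each of the 16 mice, both on log axes, with colour for the group. In the 8 WT mice the highest levels of Baiap2l1 coincide with marker sums of 2406 CPM or more, whereas hTau.P301S mice lie at 11.7 CPM or more over the whole range of the markers.

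NR was then compared with vehicle within each genotype. The choice of the genes did not compare NR with vehicle, but it required NR-treated mice of both genotypes to stay apart. A gene that NR brought to the level of the other genotype could therefore not have been chosen. In hTau.P301S mice all 8 genes were tested and none was called, in a comparison where 1 of 16386 genes passed (0.0061%). Gm10020 showed the largest change, from 31.2 ± 40.2 CPM (SD, n = 4) without to 8.13 ± 0.827 CPM with NR, and the groups did not overlap. Its log2 fold change was -1.96 (SE 0.75, unadjusted p = 0.0287, edgeR adjusted p = 0.367), and a two-sided exact permutation test gave p = 0.0286, the smallest that 4 against 4 mice allow. Without hTau.P301S replicate 1 the change was -0.43 (SE 0.16, adjusted p = 0.211). Gm13394 went from 346 ± 151 to 206 ± 36.7 CPM, a log2 fold change of -0.76 (SE 0.31, unadjusted p = 0.0362, adjusted p = 0.367), and -0.39 (SE 0.16, adjusted p = 0.241) without that mouse. An unadjusted p under 0.05 was thus reached by 2 of the 8 genes, in a comparison where 12.9% of all tested genes reached it. Beside these values, the 5 hippocampal neuron markers summed to 1721 to 4582 CPM without and 336 to 1727 CPM with NR, and the endothelial markers Cldn5 and Flt1 to 43.1 to 77 CPM without and 96.4 to 99.1 CPM with NR. Of all the marker lists, only the endothelial ranges did not overlap between these groups. Those of astrocytes, oligodendrocytes, microglia, choroid plexus, striatal neurons and blood overlapped. The part of these markers in the NR values was not tested.

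The remaining 6 genes had smaller changes relative to their error. Gm5436 changed by -1.33 (SE 0.64, edgeR adjusted p = 0.367) and Gm6969 by -1.18 (SE 0.65, adjusted p = 0.376). Without hTau.P301S replicate 1 these values became -0.18 and 0.02, so most of the difference was present only with that mouse included. Baiap2l1 changed by -0.44 (SE 0.32), Tmem181b-ps by 0.26 (SE 0.21), AC160336.1 by -0.24 (SE 0.59) and Gm9855 by 0.06 (SE 0.34), with adjusted p from 0.468 to 0.933. Leaving out hTau.P301S replicate 1 turned AC160336.1 to 0.50 and Gm9855 to -0.18.

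None of the 6 source genes passed in this comparison. Rpl15 changed by -1.42, Atp5o by -1.66 and Cox7a2l by -1.19, with edgeR adjusted p from 0.367 to 0.369, and by -0.17, -0.10 and -0.05 without hTau.P301S replicate 1. Gapdh changed by -0.52, Tdg by -0.12 and Tmem181a by 0.07 in all mice (adjusted p from 0.454 to 0.912). The log2 ratio of pseudogene to source, an alternative chosen after seeing the data, changed with NR in hTau.P301S mice by -0.36 for Gm10020 (exact permutation p = 0.0571), -0.28 for Gm13394 (p = 0.343), 0.06 for Gm6969 (p = 0.771), 0.13 for Gm5436 (p = 0.771), 0.27 for Gm9855 (p = 0.2) and 0.13 for Tmem181b-ps (p = 0.686), each with n = 4 and 4. None passed. Without hTau.P301S replicate 1 the ratio changed by -0.26 for Gm10020, -0.32 for Gm13394, 0.09 for Gm6969, 0.0015 for Gm5436, 0.08 for Gm9855 and 0.37 for Tmem181b-ps, with exact permutation p from 0.114 to 0.914 for 4 against 3 mice, which cannot give a p under 0.0571.

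In WT mice 6 of the 8 genes passed the filter on low counts, and Gm10020 and AC160336.1 did not. None of the 6 was called with NR, in a comparison where none of 16714 genes was called with edgeR or DESeq2 (0%) and 0.79% of genes reached an unadjusted p under 0.05. The log2 fold changes were 0.68 (SE 0.39) for Gm9855, 0.50 (SE 0.91) for Baiap2l1, 0.23 (SE 0.26) for Gm13394, -0.22 (SE 0.27) for Gm5436, -0.09 (SE 0.77) for Gm6969 and 0.00 (SE 0.54) for Tmem181b-ps, each with an adjusted p of 0.9999. The log2 ratio of Gm13394 to Gapdh was higher with NR by 1.56 (exact permutation p = 0.0286, n = 4 and 4, the smallest possible and 1 of 12 such tests). The share of Gm13394 was 27.4%, 26.2%, 30.2% and 25.2% with NR and 1.78%, 25%, 18.2% and 16% without, so the nearest mice of the groups were almost level. Gapdh stood at 78.6 CPM in WT replicate 1, the mouse with the lowest share, and its part in the difference was not tested.

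The effect of NR was also compared between the genotypes, and no gene of 17555 passed at an adjusted p under 0.05 (0%) with edgeR, while 7.92% had an unadjusted p under 0.05 and DESeq2 called 18. The NR effect on Gm13394 differed by -0.97 (SE 0.36, unadjusted p = 0.0173, edgeR adjusted p = 0.558), that on Gm5436 by -1.08 (SE 0.71, adjusted p = 0.586), that on Gm6969 by -1.06 (SE 1.04, adjusted p = 0.705), that on Baiap2l1 by -0.93 (SE 1.01, adjusted p = 0.731), that on Gm9855 by -0.61 (SE 0.50, adjusted p = 0.651) and that on Tmem181b-ps by 0.27 (SE 0.62, adjusted p = 0.880). Without hTau.P301S replicate 1 the values were -0.61 for Gm13394, 0.05 for Gm5436, 0.13 for Gm6969, -0.76 for Baiap2l1, -0.85 for Gm9855 and 0.19 for Tmem181b-ps, so Gm5436 and Gm6969 turned sign, and none passed. Gm10020 and AC160336.1 entered this fit only through the hTau.P301S mice, where they are high, and their interaction values are not read.

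**Figure D5:**
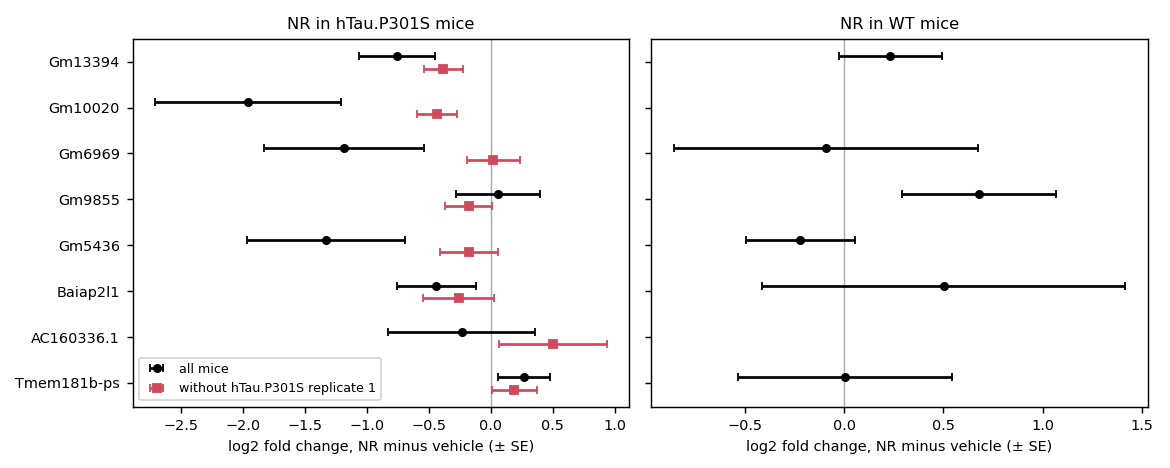
The log2 fold change of NR minus vehicle with its SE (x axis) is plotted for each of the 8 genes (y axis) in hTau.P301S mice (left) and, for the 6 genes tested, in WT mice (right). Black points use all mice and red squares leave out hTau.P301S replicate 1, which moves Gm10020 from -1.96 to -0.43, Gm5436 from -1.33 to -0.18 and Gm6969 from -1.18 to 0.02.

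For each gene the 3 genes most like it were found by Pearson's r of log2 CPM over the 16 mice after removing group means, as a description. Library batches are not given in the sources used here, and r over the 16 mice includes the spread from hTau.P301S replicate 1. Gm5436 was closest to Gm16286 (r = 0.989), Ier3ip1 (0.988) and Psma1 (0.983), and r was 0.918, 0.912 and 0.873 without that mouse. Gm13394 was closest to Actrt3 (0.952), Tmem143 (0.940) and Ctu2 (0.938), with 0.877, 0.856 and 0.853 without it. Gm10020 was closest to Gsta4 (0.940), Spata24 (0.936) and Emc2 (0.924), and Gm6969 to Gm10020 (0.882), Gsta4 (0.881) and Gm2830 (0.879). Gm9855 was closest to 2900072N19Rik (0.913), Cntrob (0.908) and Plcg1 (0.903), AC160336.1 to 5031425F14Rik (0.870), Efcab6 (0.868) and Stap1 (0.856), and Tmem181b-ps to Ak5 (0.882), 1700001L05Rik (0.874) and Rfng (0.871). Without that mouse none of the 3 genes named for Gm10020, Gm6969, Gm9855, AC160336.1 and Tmem181b-ps stayed among the nearest 3, and their r ranged from 0.686 to 0.820, 0.810 to 0.854, 0.726 to 0.758, 0.787 to 0.801 and 0.868 to 0.882, respectively. Baiap2l1 was closest to Bud13 (0.904), Zfp185 (0.888) and Hfe (0.886), which stayed at 0.902, 0.907 and 0.884 without that mouse.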

How the data were processed

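Raw counts per gene of 16 hippocampal RNA samples were used. The authors trimmed the reads with Trim Galore, aligned them to mm10 with STAR and deposited whole-number counts without normalization. The study's methods name RSEM for quantitation, and how reads with several matches were assigned, and whether strand was used, is not given in the sources used here. Groups and replicate numbers came from the sample labels.

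Each NR comparison was fitted over its 8 mice with edgeR 4.0.16 in R 4.3.3 (default filter on low counts, TMM normalization, quasi-likelihood test), and genotype and interaction over all 16 mice. Adjustment of p-values was Benjamini-Hochberg over all genes tested. A call needed a log2 fold change beyond 0.5 in either direction with adjusted p below 0.05, or for the interaction the adjusted p alone. Log2 CPM used a prior count of 2. For single values the two-sided exact permutation test of scipy 1.17.1 was used. Source genes (at least 80% identity over at least 50% of the length) were found with blastn 2.17.0. The 8 genes, the lists and the rules were chosen with earlier results of these data known. Named genes were the 8, their source genes, the I-BAR and Tmem181 genes, called neighbours, the 3 genes most like each, Mapt and Thy1. Positions were missing for 17 tested genes. The edgeR fits of NR in WT mice and of genotype were also run on simulated counts, with means and dispersions from the WT mice. The fits of NR in hTau.P301S mice and of the interaction were not. Alternatives included DESeq2 1.42.0, other filters and scalings, the replicate number as a block and each mouse left out in turn.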

Additional observations from a re-analysis of the deposited data

Results flagged for a closer look

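In groups of 4 mice, 1 mouse lay far from the other 3, by the gap to the nearest of them relative to the range of the group, in 13 of 80 groups of values examined (levels of the 8 genes and their 6 source genes, and shares of the 6 pairs). Chance picks out about 1 in 20 groups if the values are normally distributed, which was not checked for CPM and shares. In 7 of the 13 the mouse was hTau.P301S replicate 1, and these values share 1 library, so they are not independent.

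In hTau.P301S replicate 1, Gm10020 was 91.5 CPM where the next mouse of the group had 12.1 CPM, Gm6969 was 128 CPM against 27.1 CPM and Gm5436 was 38.1 CPM against 8.75 CPM. Among the source genes in the same mouse, Rpl15 was 1028 CPM against 198 CPM, Cox7a2l 612 CPM against 124 CPM and Atp5o 647 CPM against 88.5 CPM, while Tmem181a was lower at 21.1 CPM against 52.1 CPM. The mitochondrial share of that mouse was 14.4%, and the part of RNA quality in these levels was not tested.

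In WT replicate 1, Baiap2l1 was 8.17 CPM against 1.96 CPM in the next mouse, beside a choroid plexus marker sum of 7755 CPM, and Gapdh was 78.6 CPM against 9.23 CPM. In WT replicate 3, Tmem181b-ps was 137 CPM against 44 CPM. In WT replicate 2, Atp5o was 119 CPM against 73.8 CPM and Cox7a2l 186 CPM against 125 CPM. In hTau.P301S replicate 4, the share of Gm6969 in Gm6969 and Cox7a2l counts was 13.1% against 17.3%.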

How the results depend on the processing

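Counts of called genes depended on the method. With NR in hTau.P301S mice, 1 gene was called, but 283 with DESeq2, 0 with at least 10 counts in every mouse, 0 with the replicate block, 2 with all 4 groups in one fit and 0 to 33 without 1 mouse (33 without hTau.P301S replicate 1). The interaction had 0 calls, 18 with DESeq2 and 0 to 1 without 1 mouse. Genotype calls outside the 8 genes numbered 21, but 160 with DESeq2, 10 with at least 10 counts, 0 in vehicle-treated mice, 4 in NR-treated mice, 29 with the replicate block and 13 to 70 without 1 mouse (70 without hTau.P301S replicate 1 and 39 without WT + NR replicate 1). Neighbours had 0 to 2 calls without 1 mouse, and 36 to 75 genes separated the genotypes (75 without hTau.P301S replicate 1, 66 without WT + NR replicate 1 and 54 without WT + NR replicate 3 or hTau.P301S + NR replicate 4). NR in WT mice had 0 calls in every alternative.

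Of the NR values of the 8 genes, none crossed the adjusted p threshold where edgeR or DESeq2 gave one, and DESeq2 gave none for Gm10020 in hTau.P301S mice, the gene with the largest change. In hTau.P301S mice the log2 fold change turned sign relative to the source gene for Gm6969 (0.059) and Gm5436 (0.13), and without 1 mouse it ran from -1.45 to 0.020 for Gm6969, -0.18 to 0.26 for Gm9855 and -0.61 to 0.50 for AC160336.1. In WT mice it ran from -0.84 to 0.63 for Gm6969, -0.42 to 1.63 for Baiap2l1 and -0.33 to 0.73 for Tmem181b-ps, which also turned with DESeq2 (-0.00049), its size factors (-0.00085), at least 10 counts (-0.0063) and all groups in one fit (-0.0045). The deviations of same-numbered mice from their group means correlated at r from -0.537 to 0.287, so the numbers were not taken to pair the mice, and the replicate block gave none of the 8 genes a call with NR. Low counts of Gm10020 and AC160336.1 in WT mice limit what could be detected there.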
